A study of Mus musculus with 4 samples.

Results

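L, I and N cells are enteroendocrine cells (EECs) of the small intestine, and their hormones are described here through 5 transcripts, Gcg, Pyy, Cck, Nts and Insl5, chosen by name among 31053 mouse gene identifiers. Gcg encodes proglucagon, from which L cells release glucagon-like peptides, and Pyy encodes peptide YY, a hormone of L cells that slows gut motility and reduces appetite. Cck encodes cholecystokinin of I cells, which acts on gallbladder contraction and pancreatic enzyme secretion, and Nts encodes neurotensin of N cells, which acts on fat absorption. Insl5 encodes insulin-like peptide 5, a hormone known mainly from L cells of the colon. In the mouse small intestine L, I and N cells are regarded as one family of overlapping cell states, and a single cell can hold several of these hormones.

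The 3′ ends of transcripts were sequenced from sorted cells and from organoids. RetEGFP/+ mice express EGFP from the Ret locus, so that fluorescence marks cells that express the receptor RET, and small intestinal crypts of 3 adult male mice gave 5 Ret-EGFP+ and 5 non-EGFP libraries of 1000 cells each. Crypt organoids of adult wild-type C57BL/6J mice were grown for 4 days in the standard medium, which holds EGF, Noggin and R-spondin, without (control) or with the RET ligand GDNF and its co-receptor GFRA1 at 500 ng/mL each. Because both proteins were added together, their effects cannot be told apart, and GDNF below stands for both. The organoids came from 3 experiments of 1 mouse each (female in experiments 1 and 2, male in experiment 3), with 2 libraries per treatment in each, so libraries of an experiment share a mouse. The gate for EGFP leaves EECs without Ret in the non-EGFP class. The labels do not name the mouse of each sorted library, so no mouse term was used there. In both tables p-values measure the spread between libraries, not between mice, and may be too small. The sorted and organoid tables were scaled separately and are compared only within each table.

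Total counts were 1113006 to 4717549 per sorted library and 1042028 to 2010359 per organoid library. The general EEC genes checked the labels of the sort. Of 5 defining EEC markers 4 were higher and none was lower in Ret-EGFP+ cells, and their summed level was 14762 to 21820 CPM (counts per 1000000, with library sizes normalized by the trimmed mean of M values, TMM) against 945 to 3336 CPM in non-EGFP cells. All 5 markers of each of goblet, Paneth, tuft and stem cells were lower. Of 6 enterocyte markers 5 were lower and 1 was higher. Over all genes tested 21.5% were called higher and 21.5% lower. In sorted cells 8 values of 4 of the hormones exceeded 65536, which is all the molecular identifiers that 8 nucleotides allow, so these counts cannot all be distinct molecules. Nts exceeded it in all 5 Ret-EGFP+ libraries, and Gcg, Pyy and Cck in 1 library each. The levels, ratios and shares of Nts in Ret-EGFP+ cells below rest on such counts. Over all genes 32 values exceeded the limit, with some in every sorted library of both classes. Counts of the sorted table as a whole, its totals included, are therefore not taken as numbers of distinct molecules.

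The 5 genes lie on 5 chromosomes, all on the minus strand of GRCm38, and no other annotated gene overlaps any of them. Gcg is at chromosome 2, 62474530 to 62483650, Pyy at chromosome 11, 102106676 to 102107832, and Cck at chromosome 9, 121489824 to 121495694. Nts is at chromosome 10, 102481756 to 102490486, and Insl5 at chromosome 4, 103017872 to 103026842. The bases from 40 to 11 before each transcription start in RefSeq (GRCm38.p6) are shown because a TATA box, where a gene has one, lies in this stretch. Capitals mark a match, on the strand of the gene, to the motif TATAAA, to its variant TATATA or to its variant TATTTA.
Gcg (chr2:62483664-62483693, minus strand): aacagcctggagagcaTATAAAagcacagc
Pyy (chr11:102107843-102107872, minus strand): tttccaagtgggatataagccccgcaggga
Cck (chr9:121495705-121495734, minus strand): actgggtaaacagatgactggctgcgaacc
Nts (chr10:102490429-102490458, minus strand): atagggactggccacagcatccctcacagt
Insl5 (chr4:103026739-103026768, minus strand): tccaagagggtgagataacttcaaaactcc

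Gcg alone held one of the 3 motifs in this window, TATAAA starting 24 bases before the start, and 3.58% of the 32851 promoters in the table held one there. The RefSeq start of Gcg and of the other genes was 0 to 114 bases from the start in the annotation of the counts (3 for Gcg, 0 for Pyy and Cck, 68 for Nts, 114 for Insl5), so the windows of Nts and Insl5 depend on which start is used. Matches on the strand of the gene but not wholly inside the window were TATATA in Nts (45 and 43 bases before the start) and TATAAA in Insl5 (49). TATTTA was found in this way in Cck (1) and Gcg (89). Over the 300 bases from 250 before to 50 after the start, and on both strands, the AP-1 motif TGANTCA was found in Nts (TGAGTCA, 207 bases before the start) and in 7.81% of all promoters. The cyclic AMP response element TGACGTCA was in none of the 5, and in 1.79% of all promoters. A match or its absence is a description of these letters.

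To ask which of these hormones mark RET-expressing crypt cells, Ret-EGFP+ libraries were compared with non-EGFP libraries. All 5 hormone transcripts were higher in Ret-EGFP+ cells by edgeR's quasi-likelihood test at an adjusted p under 0.1, where 21.5% of the 13443 genes tested were called higher and 21.5% lower. For 4 of them every Ret-EGFP+ library lay above every non-EGFP library, a pattern found in 11.1% of genes tested. Together the 5 hormones took 14.01 ± 1.67% (SD, n = 5) of all counts in Ret-EGFP+ and 0.092 ± 0.046% (SD, n = 5) in non-EGFP libraries. In libraries of bulk RNA, more cells of a type and more RNA per cell cannot be told apart.

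Among the L cell hormones, Gcg was at 21760, 22979, 31021, 29910 and 28013 CPM in Ret-EGFP+ libraries 1 to 5 and at 345, 243, 209, 159 and 293 CPM in non-EGFP libraries 1 to 5. The classes did not overlap, and the log2 fold change was 6.74 ± 0.25 (SE, standard error, adjusted p = 2.4e-15, edgeR). Pyy was at 7112, 22341, 28528, 28600 and 31693 CPM in Ret-EGFP+ libraries and at 140, 104, 410, 188 and 656 CPM in non-EGFP libraries. Ret-EGFP+ library 1 was the lowest of its class for Pyy, as it was for Gcg and Nts but not for Cck, and it still lay above every non-EGFP library, with a log2 fold change of 6.30 ± 0.48 (SE, adjusted p = 1.9e-10). Insl5 had 24, 3, 32, 35 and 0 counts in Ret-EGFP+ libraries 1 to 5, and 0 counts in each of the 5 non-EGFP libraries. With 3 counts over the non-EGFP class taken as the floor, Insl5 was at least 34.6-fold higher (adjusted p = 0.00081, edgeR), and it was 0 in Ret-EGFP+ library 5, so its classes overlapped.

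Cck of I cells was at 18650, 16507, 17787, 17084 and 23080 CPM in Ret-EGFP+ libraries and at 273, 205, 209, 311 and 461 CPM in non-EGFP libraries. It had the smallest log2 fold change of the 5, 5.99 ± 0.25 (SE, adjusted p = 1.0e-14), although the classes were far apart. Nts of N cells was at 40164, 49588, 53296, 48350 and 42258 CPM in Ret-EGFP+ libraries and at 115, 144, 193, 317 and 528 CPM in non-EGFP libraries. Its log2 fold change was 7.49 ± 0.37 (SE, adjusted p = 1.0e-13). Within Ret-EGFP+ libraries Nts varied least, with an SD of 11.6% of the mean, and Pyy most among the 4 abundant hormones, at 41.6%. Without Ret-EGFP+ library 1 the SD of Pyy was 14.1% of the mean and Cck varied most, at 16.2%.

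**Figure D1:**
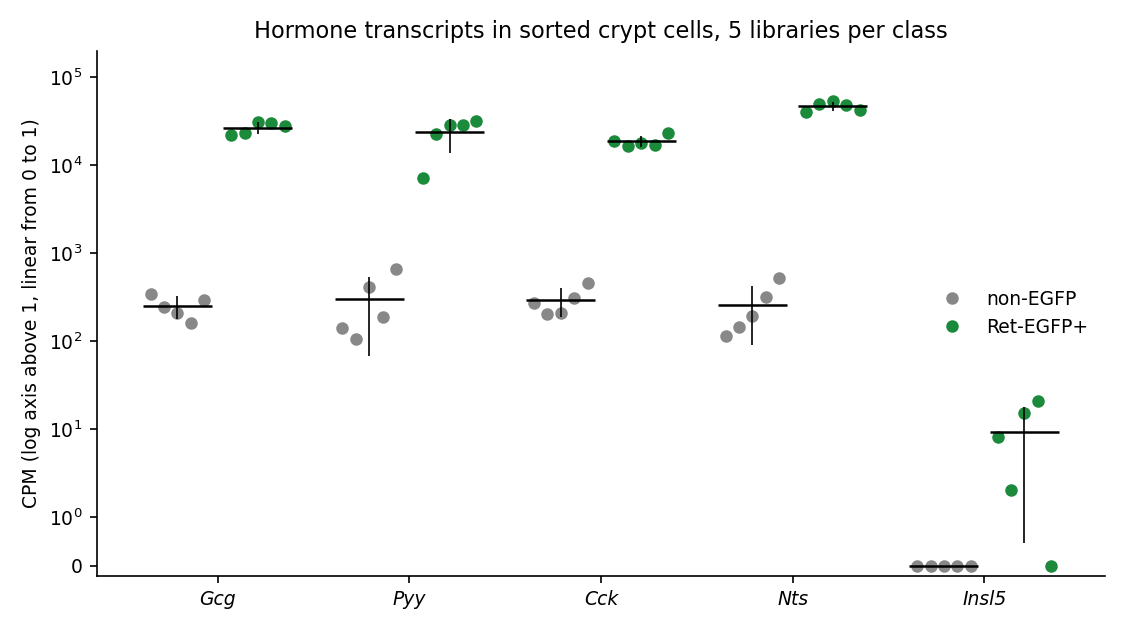
CPM of the 5 hormone transcripts in 5 non-EGFP (grey) and 5 Ret-EGFP+ (green) libraries, on an axis that is logarithmic above 1 and linear from 0 to 1. Points are libraries in their numbered order, horizontal lines are means and vertical lines the SD cut at 0. Gcg, Pyy, Cck and Nts lie between 7112 and 53296 CPM in Ret-EGFP+ and between 104 and 656 CPM in non-EGFP libraries, and Insl5 is at 0 in all non-EGFP libraries.

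The non-EGFP libraries still held each of the 4 abundant hormones. Their level there was 0.285 to 2.07% of that in the adjacent Ret-EGFP+ well of the plate, by the wells in the sample sheet. Non-EGFP library 5 had the highest Pyy, Cck and Nts of its class but not the highest Gcg. Library 5 of each class was on plate 4 and in its own sequencing pool. Without plate 4 all 5 hormones were still called higher.

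Scaled by total counts alone the median of all genes rose by 0.55 on the log2 scale and 71.9% of calls were higher, against 50.0% with TMM scaling. The hormones stayed called under that scaling too, with log2 fold changes shifted by 0.53 to 0.54 for Gcg, Pyy, Cck and Nts and by 0.30 for Insl5. Relative levels within a library do not depend on this scaling and are given as ratios of counts. A ratio of counts between genes also depends on how well each 3′ end is captured, so only its difference between groups is read. In each library the log2 ratio was taken for the 6 pairs of Gcg, Pyy, Cck and Nts and of each hormone to the summed counts of 12 general EEC genes (Chga, Chgb, Scg3, Scg5, Cpe, Pcsk1, Neurod1, Insm1, Rfx6, Nkx2-2, Pax6 and Isl1). The 20 ratios of both tables were tested with exact two-sided permutation tests and adjusted together. The smallest p possible is 0.00794 in sorted cells and 0.00926 in organoids. Single libraries were regrouped, freely in sorted cells and within each experiment in organoids. These p-values therefore measure the spread between libraries and not between mice. Adjacent wells of sorted cells were not kept as pairs.

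In sorted cells 3 of the 6 hormone pairs differed between the classes. The ratio of Nts to Cck was 2.15, 3.00, 3.00, 2.83 and 1.83 in Ret-EGFP+ libraries 1 to 5 and 0.42, 0.705, 0.924, 1.02 and 1.14 in non-EGFP libraries. The classes did not overlap, and the log2 ratio differed by 1.66 (exact permutation p = 0.00794, the smallest possible, adjusted p = 0.0168). Nts to Pyy was higher in Ret-EGFP+ cells by 1.24 on the log2 scale (adjusted p = 0.045, exact permutation test), with overlap. Cck to Gcg was lower, at a log2 difference of -0.73 (adjusted p = 0.053), also with overlap.

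The other 3 pairs did not pass. Pyy to Gcg differed by -0.30 (adjusted p = 0.627, exact permutation test), and by 0.017 without Ret-EGFP+ library 1. Nts to Gcg differed by 0.93 (adjusted p = 0.149), and passed without non-EGFP library 4 (1.21, adjusted p = 0.079) or without non-EGFP library 5 (1.18, adjusted p = 0.093). Cck to Pyy differed by -0.42 (adjusted p = 0.535). Nts made up 40.8 ± 4.77% (SD, n = 5) of the summed hormone counts in Ret-EGFP+ and 22.5 ± 7.53% (SD, n = 5) in non-EGFP libraries. Cck made up 16.4 ± 3.36% and 27.4 ± 5.01% (SD, n = 5 each).

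All 4 hormones also rose against the summed counts of the general EEC genes. The log2 difference was 3.13 for Gcg, 2.40 for Cck and 4.06 for Nts (adjusted p = 0.0168 each, exact permutation test), with no overlap. For Pyy it was 2.82 (adjusted p = 0.026), with overlap. The EEC genes were themselves higher in Ret-EGFP+ cells, 12 of 12 with a median log2 fold change of 4.14, beside 0.10 over all genes tested. Most of the summed counts came from Chgb in both classes, and Chgb rose least of the 12, by 3.18. The differences above are therefore mainly gains over Chgb. Scg5 (5.77), Scg3 (5.35) and Cpe (5.34) rose most of the 12, and lay below but close to Cck (5.99).

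The genes that direct, process and trigger release of these hormones were read from lists chosen by function. For every list in sorted cells below, the shares over all genes tested are 21.5% called higher and 21.5% lower. Of 12 transcription factors of the L, I and N lineage and neighbouring subtypes, 11 were tested, 7 were higher and 1 was lower, with a median log2 fold change of 1.28. Etv1 was at 466.3 ± 61.5 against 3.82 ± 2.80 CPM (SD, n = 5 each), a log2 fold change of 6.85 (adjusted p = 4.0e-13, edgeR). Onecut3 was higher by 7.06. Pax4, a factor of serotonin and somatostatin cells, did not pass (0.93, adjusted p = 0.387), nor did Foxa2 (1.17, adjusted p = 0.101). Foxa2 lay next to the threshold and passed with DESeq2 (adjusted p = 0.099) and with the plate as a block (0.041). The factor that was lower was Hhex (-5.14, adjusted p = 0.0099), known from somatostatin cells and named here after its value was seen.

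Of 8 genes of prohormone processing and amidation 7 were higher and 1 was lower, with a median log2 fold change of 5.07. Cpe, the carboxypeptidase that trims processed prohormones, was at 3267 ± 348 against 79.8 ± 29.2 CPM (SD, n = 5 each), a log2 fold change of 5.34 (adjusted p = 6.8e-14, edgeR). Scg5, the chaperone of prohormone convertase 2, was higher by 5.77 and Pcsk1n, an inhibitor of prohormone convertase 1, by 4.81. The gene that was lower, Qsox1 (-2.53), encodes a sulfhydryl oxidase and was named after its value was seen.

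Of 12 nutrient and bile acid receptors 11 were tested and 8 were higher, none lower, with a median of 3.05. Ffar1, a receptor of long-chain fatty acids, was at 133 ± 29.7 against 1.80 ± 1.095 CPM (SD, n = 5 each), a log2 fold change of 6.27 (adjusted p = 8.6e-13, edgeR). Ffar2, a receptor of short-chain fatty acids, was higher by 3.05, and Gpr119, a receptor of lipid amides, by 6.08 on 4 counts in non-EGFP cells. Slc5a1, the sodium glucose transporter, was at 84.3 ± 17.0 against 78.5 ± 15.0 CPM and did not pass (0.10, adjusted p = 0.781), though it did under total counts alone. Cnr1, a cannabinoid receptor, did not pass (2.56, adjusted p = 0.195).

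Receptors of the 5 hormones were nearly absent, with 2 of 13 tested. Npy1r, a receptor of peptide YY and its relatives, had 45 counts in Ret-EGFP+ against 2 in non-EGFP cells and was higher (4.16, adjusted p = 0.029, edgeR), but not without plate 4 (adjusted p = 0.164). Sort1, the sorting receptor that binds neurotensin, did not pass (0.16, adjusted p = 0.761). Of 4 cell surface peptidases that cut these hormones 1 was higher, Anpep (1.49, adjusted p = 0.0022), and 2 were lower, Mme (-4.54, adjusted p = 1.7e-05) and Enpep (-1.77, adjusted p = 0.0090). With 21.5% of all genes tested called in each direction, these 4 genes give no result about peptidases as a group. Dpp4, which inactivates the glucagon-like peptides, did not pass (0.56, adjusted p = 0.164), and it was called higher under total counts alone and without Ret-EGFP+ library 2 or non-EGFP library 4.

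Of 10 hormones and transmitters of other EEC subtypes 9 were tested and 7 were higher, where 21.5% of all genes tested were called higher. Their median log2 fold change was 3.82, beside 6.74 for the 5 L, I and N hormones. Gal (6.84) of this list rose more than Gcg, Pyy and Cck, and Gast (6.43) more than Pyy and Cck. Both were named after their values were seen, and they had 14 and 4 counts in non-EGFP cells. Ghrl, ghrelin of X cells, was at 86876 ± 12979 against 1621 ± 742 CPM (SD, n = 5 each), a log2 fold change of 5.74 (adjusted p = 1.2e-13, edgeR). Sct, secretin, was higher by 5.16 and Tph1, the enzyme of serotonin synthesis in enterochromaffin cells, by 3.82. Sst of D cells did not pass (0.22, adjusted p = 0.893), nor did Iapp (0.24, adjusted p = 0.834).

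To ask whether RET signaling changes these hormones, organoids with GDNF were compared with control organoids of the same experiment. Pyy, Cck and Nts were higher with GDNF and Gcg did not pass, by edgeR's quasi-likelihood test with the experiment as a block. Over all 12170 genes tested 0.534% were called higher and 0.131% lower. In the same 3 genes both GDNF libraries lay above both control libraries in every experiment, a pattern found in 1.11% of genes tested. Insl5 had 1 count in the 12 libraries, in a control, and was not tested, and the 0 counts with GDNF allow a level of up to 0.302 CPM, for counting error only.

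Pyy was the lowest of the 4 in counts, with 3 to 15 counts per control library and 20 to 60 per GDNF library. In experiment 1 it was at 2.85 and 7.57 CPM in controls and 25.4 and 17.7 CPM with GDNF. In experiment 2 it was at 4.46 and 3.07 CPM in controls and 18.4 and 13.9 CPM with GDNF, and in experiment 3 at 10.9 and 5.99 CPM in controls and 26.8 and 30.2 CPM with GDNF. Every GDNF library lay above every control library, also across experiments. The log2 fold change was 1.88 ± 0.24 (SE, adjusted p = 1.4e-06), a 3.67-fold rise.

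Cck was at 123 and 168 CPM in controls and 194 and 258 CPM with GDNF in experiment 1. It was at 94.3 and 102 CPM in controls and 218 and 253 CPM with GDNF in experiment 2, and at 212 and 192 CPM in controls and 362 and 379 CPM with GDNF in experiment 3. Levels were highest in experiment 3 in both treatments, so the treatments overlapped across but not within experiments. The log2 fold change was 0.91 ± 0.10 (SE, adjusted p = 5.0e-08), a 1.88-fold rise, and without the block it did not pass (0.90, adjusted p = 0.331).

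Nts was at 21.8 and 31.3 CPM in controls and 42.6 and 36.5 CPM with GDNF in experiment 1. It was at 17.1 and 26.1 CPM in controls and 33.1 and 53.7 CPM with GDNF in experiment 2, and at 36.2 and 51.3 CPM in controls and 53.6 and 64.9 CPM with GDNF in experiment 3. The log2 fold change was 0.63 ± 0.15 (SE, adjusted p = 0.037), a 1.54-fold rise. This call was lost without any one of 4 libraries, control library 1 (adjusted p = 0.204) or GDNF library 2 (0.329) of experiment 2, and control library 1 (0.159) or GDNF library 2 (0.115) of experiment 3. It was also lost without experiment 2 (0.712), without experiment 3 (0.111) and without the block (1.00), while the direction held.

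Gcg was at 103 and 72.7 CPM in controls and 57.2 and 53.6 CPM with GDNF in experiment 1. It was at 72.8 and 59.8 CPM in controls and 67.1 and 58.1 CPM with GDNF in experiment 2, and at 131 and 152 CPM in controls and 139 and 145 CPM with GDNF in experiment 3. The groups were apart only in experiment 1, where GDNF libraries were the lower ones. The log2 fold change was -0.22 (adjusted p = 0.754, edgeR), with a 95% interval of -0.45 to 0.01 from its standard error.

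**Figure D2:**
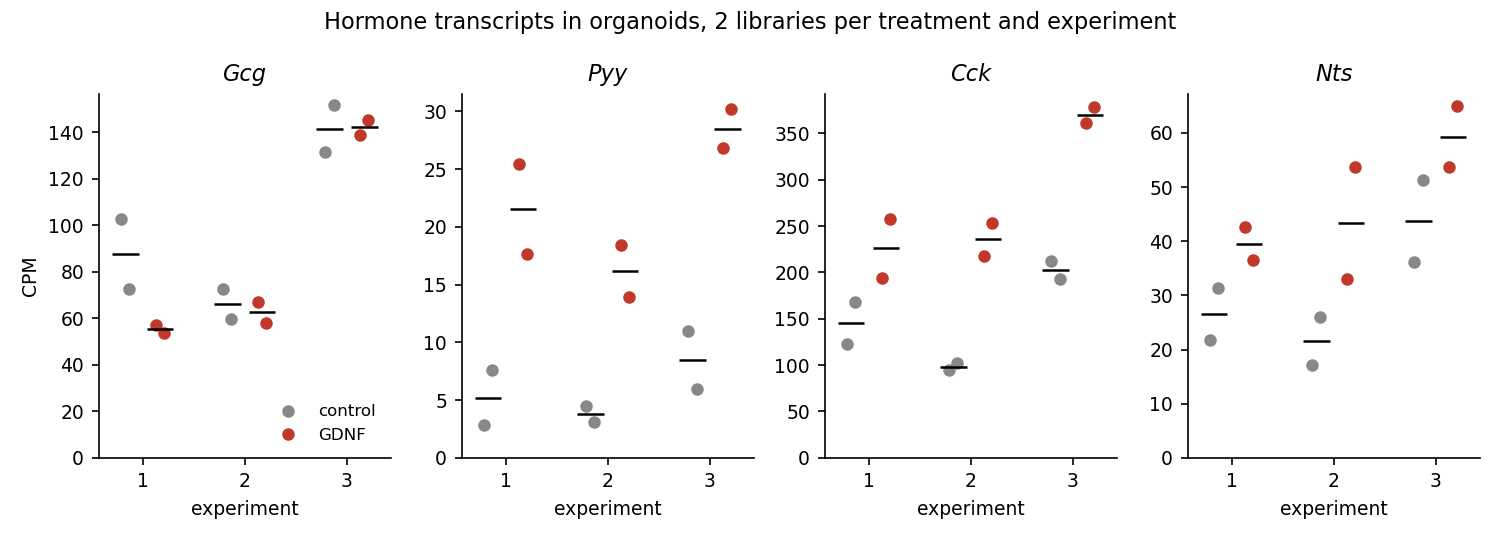
CPM of Gcg, Pyy, Cck and Nts (linear axes from 0, a different scale in each panel) in control (grey) and GDNF (red) organoids, by experiment. Points are libraries, 2 per treatment and experiment, and lines their means. For Pyy, Cck and Nts the red points lie above the grey points in each experiment, and for Gcg only experiment 1 separates them, with red below grey.

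Within single experiments, 2 libraries against 2, the log2 fold change of Pyy was 1.87, 2.05 and 1.78 in experiments 1, 2 and 3 (adjusted p = 0.048, 0.094 and 0.022, edgeR). Cck was at 0.62, 1.27 and 0.87, and passed in experiments 2 and 3 (adjusted p = 1.4e-05 and 0.0027) but not in experiment 1 (0.231). Nts was at 0.52, 1.04 and 0.42 and passed in none (adjusted p = 0.899, 0.223 and 0.847). Gcg was at -0.63, -0.09 and 0.00 and passed in none. Genes called higher were 0.0575% of those tested in experiment 1, 0.164% in experiment 2 and 0.115% in experiment 3. The GDNF effect itself differed between experiments, by the interaction test, in 0.0493% of genes, and for none of the 4 hormones (adjusted p = 0.964 for Cck and above it for the others), with unadjusted p under 0.05 for 1 of them, Cck.

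Within organoid libraries the hormones changed relative to each other. Pyy to Gcg, the L cell hormones, was at 0.0323 and 0.107 in controls and 0.448 and 0.333 with GDNF in experiment 1. It was at 0.066 and 0.0573 in controls and 0.279 and 0.243 with GDNF in experiment 2, and at 0.0863 and 0.0416 in controls and 0.195 and 0.209 with GDNF in experiment 3. Every GDNF library lay above every control library. The log2 ratio rose by 2.18, or 4.54-fold, with the smallest exact permutation p possible (0.00926, adjusted p = 0.0168).

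Cck to Gcg rose by 1.16 and Nts to Gcg by 0.91 on the log2 scale (adjusted p = 0.0168 each, exact permutation test within experiments). Against Pyy, Cck fell by 1.02 (adjusted p = 0.0168) and Nts fell by 1.27 (adjusted p = 0.028). The Nts to Pyy ratio of experiment 2, GDNF library 2 was the highest with GDNF, and without experiment 1 or 3 the adjusted p was 0.148 or 0.139. Nts to Cck did not pass (-0.25, adjusted p = 0.206).

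Relative to the summed 12 EEC genes, Pyy rose by 1.76 and Cck by 0.74, whereas Gcg fell by 0.42 on the log2 scale (adjusted p = 0.0168 each, exact permutation test). The fall of Gcg did not pass when the reference was the mean log2 CPM of the 12 genes (-0.20, adjusted p = 0.319), a reference that gives low genes more weight. Chgb, a granin of secretory granules, made up most of the summed counts. Nts rose by 0.49 (adjusted p = 0.058), and did not pass without experiment 1 or 2. All 10 organoid ratios had the same sign in each of the 3 experiments.

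**Figure D3:**
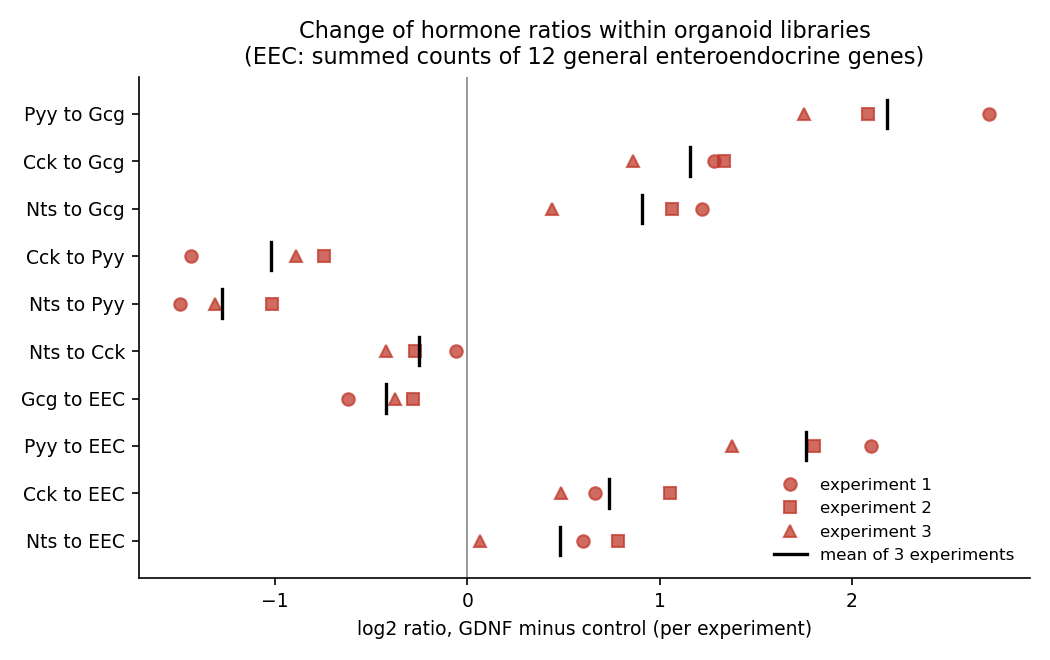
Difference of the log2 ratio of counts between GDNF and control organoids, for 6 pairs of hormones and for each hormone to the summed counts of 12 EEC genes. Symbols are experiments (mean of 2 GDNF libraries minus mean of 2 control libraries) and black bars the mean over the 3 experiments. Pyy to Gcg lies farthest to the right, at a mean of 2.18, and Nts to Cck lies nearest to 0 at -0.25.

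As shares of the summed counts of the 5 hormones, Gcg took 34.7 ± 5.54% in control and 19.2 ± 3.95% in GDNF libraries (SD, n = 6 each). Pyy took 2.02 ± 0.696% and 5.24 ± 1.45%, and Cck 52.4 ± 4.43% and 64.4 ± 3.77%. Nts took 10.8 ± 2.09% and 11.2 ± 2.05%. The 5 hormones together were 0.0279 ± 0.0083% of all counts in control and 0.0435 ± 0.0124% in GDNF libraries (SD, n = 6 each).

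**Figure D4:**
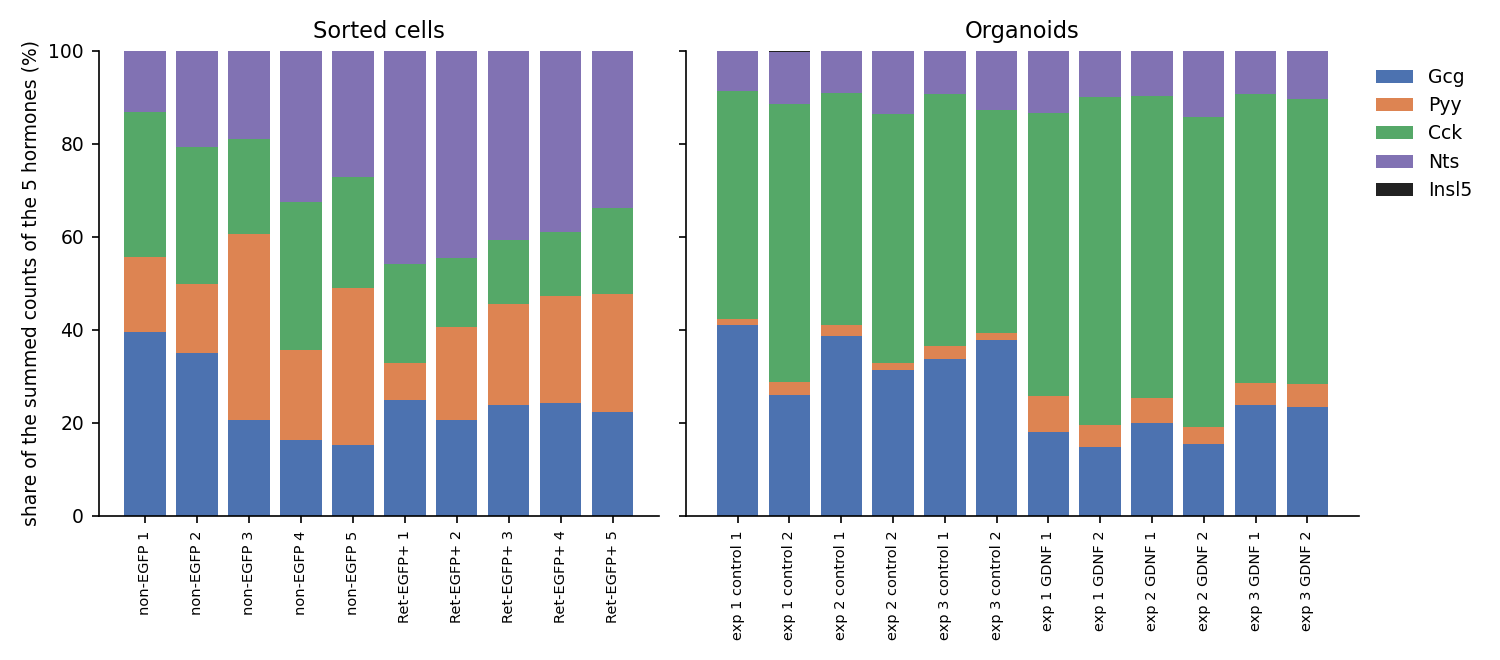
Share of each hormone in the summed counts of Gcg, Pyy, Cck, Nts and Insl5, 1 bar per library, for 10 sorted and 12 organoid libraries. Nts takes the largest part in Ret-EGFP+ cells (mean 40.8%) and Cck in organoids, where Gcg is at a mean of 34.7% in controls and 19.2% with GDNF.

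General EEC genes did not pass with GDNF by edgeR, 0 of 12 with a median log2 fold change of -0.13, beside 0.00 over all genes tested and 0.77 over the 4 hormones tested. Of the 12, 2 had an unadjusted p under 0.05 (Chga and Chgb), and DESeq2 called 0. Several of the 12 had few counts, such as Pax6 (13 in control and 18 in GDNF libraries, SE 0.63) and Insm1 (18 and 13, SE 0.67). A rise of the size seen for Nts could be missed in such genes. Chgb was at 608 ± 64.2 against 510 ± 67.7 CPM (SD, n = 6 each) and did not pass (0.25, adjusted p = 0.398, edgeR), and passed without control library 1 of experiment 1 (0.34, adjusted p = 0.032) and without experiment 1 (0.37, adjusted p = 0.066). Chga, a further granin, was at 59.2 ± 9.01 against 75.4 ± 16.0 CPM and did not pass (-0.34, adjusted p = 0.392). Of the other EEC hormones and transmitters 2 of 8 tested were higher, Tac1, the precursor of substance P (0.79, adjusted p = 0.0013), and Tph1 (0.87, adjusted p = 0.016). Tac1 was lost without experiment 3, Tph1 without experiment 2 or its GDNF library 2, and both without the block (adjusted p = 0.649 and 0.691). Ghrl (0.21, adjusted p = 0.785) and Gip, the hormone of K cells (0.07, adjusted p = 0.947), did not pass.

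None of the 27 genes tested in the other 5 lists passed with GDNF by edgeR, 2 had an unadjusted p under 0.05 (Qpct and Mme), and DESeq2 called 0. This holds for 9 transcription factors tested (median 0.10), 7 processing genes (0.19), 6 nutrient receptors (0.34), 1 hormone receptor and 4 peptidases (-0.24). Sox4 (0.17) and Foxa1 (0.42) among the factors, Cpe (0.41) and Qsox1 (0.19) among processing genes, Ffar2 (0.53) and Slc5a1 (-0.07) among receptors, and Sort1 (0.21), Dpp4 (-0.12) and Mme (-0.25) had adjusted p of 0.613 to 0.948 (edgeR). Mme, neprilysin, passed without experiment 1 (-0.50, adjusted p = 0.028).

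Among markers of other cell types, edgeR called 2 of 5 goblet, 3 of 5 Paneth and 3 of 5 stem cell genes higher with GDNF. None was lower by edgeR, and of all genes tested 0.534% were called higher. DESeq2 called 2 goblet, 3 Paneth and 2 stem cell genes of these sets. The part of these markers in the hormone changes was not tested. Of 6 enterocyte markers edgeR and DESeq2 called 0, with an unadjusted p under 0.05 for 1 (Apoa4), and of 2 tuft markers tested none passed by either tool or at an unadjusted p under 0.05. The summed level of goblet markers was 1780 to 2590 CPM in control and 2237 to 2741 CPM in GDNF libraries. That of Paneth markers was 20186 to 33181 and 23470 to 38051 CPM, and that of stem cell markers 355 to 1544 and 593 to 1636 CPM. All these ranges overlapped, but they pool the experiments, whereas the calls were made with the experiment as a block. The 5 EEC markers, with none called, summed to 541 to 732 CPM in control and 623 to 754 CPM in GDNF libraries. Lymphocyte and islet markers were at 0 in all organoid libraries.

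Likeness of pattern was described by Pearson's r of log2(CPM + 1) after the mean of each experiment or EGFP class was removed. In organoids, over 12 libraries of 3 mice that share treatment, Cck and Pyy were alike (r = 0.895), as were Cck and Nts (0.834) and Pyy and Nts (0.722). For Gcg r was -0.606 to Pyy, -0.553 to Nts and -0.50 to Cck, though its own change with GDNF did not pass. The mean of each treatment was not removed, so these values partly restate the GDNF changes above and are no separate result. Among those most like Pyy were Selenom (0.964) and Pls3 (0.936), and most like Cck were Mmp7 (0.953), S100a11 (0.939) and Nmral1 (0.926). Most like Nts were Ly6a (0.942), Hpd (0.938) and Bub3 (0.917), and most like Gcg were Anapc13 (0.951), Rab5if (0.922) and Ptpn2 (0.913).

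In sorted cells, over 10 libraries of unequal depth, the pairs ranged from 0.693 for Nts and Cck to -0.187 for Nts and Gcg. The gene most like Gcg was Ankfy1 (0.959), followed by Pmpcb (0.949) and Mitd1 (0.941). For Pyy they were Rpl4 (0.945), Ero1l (0.908) and Fbxo42 (0.908), and for Cck Dnaja4 (0.942), Tra2b (0.936) and Gstz1 (0.931). For Nts they were Hikeshi (0.935), Ghrl (0.910) and Hmx2 (0.898). These are the highest of 9311 genes in sorted cells and 8935 in organoids, so high values are found for some genes by the number searched.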

How the data were processed

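The authors aligned 3′ reads with STAR 2.7.8a to GRCm38 and deposited raw whole-number counts per Ensembl gene, described as counts of molecular identifiers. 1 entry that is no mouse gene was left out. Libraries were mapped to class, plate, experiment and treatment by the sample sheets deposited with the tables.

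Counts were tested with edgeR 4.0.16 (quasi-likelihood, TMM, R 4.3.3) on genes with at least 5 counts and a mean of at least 1 count scaled by DESeq2 size factors, and called at an adjusted p under 0.1. For organoids the experiment was a block, since its libraries come from the same mouse; this pairing is given by the sample sheet and the methods. Standard errors are the log2 fold change over the square root of F. Ratios had 0.5 added to each count. Checked on simulated counts, edgeR recovered 20% of genes changed 2-fold and 63% of those changed 4-fold in sorted cells (13.5% of calls false), and 87% and 100% in organoids (6.97% false). Only 100 genes were changed at each size, of 13327 in sorted cells. That is a far smaller part than was called in the real sorted cells, so these shares do not give the recovery there. The members and lists were chosen with earlier results of these data known. From each list the text names up to 3 called genes by p and 2 abundant ones that did not pass. Some genes that this rule or the likeness rule names are not reported here. The alternatives were DESeq2 1.42.0, other scalings, filters, thresholds and blocks, and leaving out libraries, plates or experiments. The robust option of edgeR, a filter on TMM-scaled means and a block of adjacent wells were added after seeing the data. The robust option and that filter had each been used for a time as the reported setting before the planned ones were restored. Counting intervals and floors cover counting error only.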

Additional observations from a re-analysis of the deposited data

Results flagged for a closer look

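Of 58 sets of values checked (levels and ratios of the hormones in a group of 5 or 6 libraries), 4 held a library whose gap to the nearest of the others was large against the range, and chance gives about 1 in 20 sets. In sorted cells Ret-EGFP+ library 1 had a log2 ratio of Pyy to Gcg of -1.61, against -0.12 to 0.18 in the other 4, and of Cck to Pyy of 1.39, against -0.74 to -0.44. In organoids Insl5 was at 0.505 CPM in control library 2 of experiment 1, a single count, and at 0 in the other controls. The log2 ratio of Nts to Pyy was 1.93 in GDNF library 2 of experiment 2 and 0.737 to 1.098 in the other 5 GDNF libraries.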

How the results depend on the processing

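All 5 hormones stayed higher in Ret-EGFP+ cells under every alternative that tested them (Insl5 could not be tested in 1 of the 23), and Pyy stayed higher with GDNF under all 26, DESeq2 included. With total counts alone in sorted cells 4636 genes were called higher and 1816 lower, in place of 2890 and 2892. Without the replicate block in organoids only 1 hormone, Pyy, was called, Cck was at 0.90 and Nts at 0.63, and 6 genes were called higher and 1 lower in place of 65 and 16. With counts summed per experiment and treatment 26 genes were called lower. Leaving out 1 library or experiment gave 31 to 69 genes higher and 4 to 27 lower in organoids, and a log2 fold change of Nts of 0.47 to 0.76. The GDNF effect differed between experiments in 6 genes, in 3 with total counts alone and in 1 with filterByExpr. Against the mean log2 CPM of the EEC genes Gcg changed by -0.20 in place of -0.42. In sorted cells the difference of Pyy to Gcg ranged from -0.62 to 0.017 with 1 library left out, and that of Nts to Gcg from 0.57 to 1.21. In organoids, with 1 experiment left out, Nts to Pyy ranged from -1.40 to -1.16 and Nts to EEC genes from 0.33 to 0.69. Values that did not pass and changed sign with 1 library or experiment left out ranged, in sorted cells, from -0.028 to 0.32 for Sort1 (-0.15 without plate 4), -0.84 to 0.68 for Sst and -0.56 to 0.91 for Iapp, and in organoids from -0.16 to 0.00043 for Slc5a1 and -0.018 to 0.13 for Gip. The cause of these changes was not tested, other than fewer samples in the fits with some left out. Plate or adjacent wells as a replicate block changed no call of a hormone gene in sorted cells. The ratios there were not tested with either block. The robust option of edgeR and the filter on TMM-scaled means changed no call of a hormone gene in either table. Adjacent wells, that option and that filter were chosen after seeing the data. With the robust option the log2 fold change of Pyy in sorted cells stayed at 6.30 and its adjusted p was 0.00023 in place of 1.9e-10. Depth limits Insl5, with 94 counts in sorted cells and 1 in organoids, and Pyy in control organoids, with 50 counts in 6 libraries. It also limits general EEC genes with few counts in organoids, such as Pax6 and Insm1.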
